A study of Mus musculus with 6 samples.

Results

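The endoplasmic reticulum (ER) folds proteins that enter the secretory pathway, and cells match its folding capacity to demand through the unfolded protein response (UPR). Measurements were taken for 34 genes of this system out of 54532 in the gene table: the genes named in a list of ER chaperones, protein disulfide isomerases, UPR sensors and regulators, ER-associated degradation (ERAD) genes and Sec61 translocon subunits. Each symbol on the list matched the name of 1 gene, and all 34 passed the low-value filter (mean FPKM of at least 0.5), which left 15144 genes tested. RNA came from mouse embryonic stem cells of strain 129SV labelled haploid, the term for a single chromosome set. Ploidy itself was not measured here. The 3 WT libraries are labelled wild type haploid. The other 3 carry the genotype label P53 - haploid, the title P53ki and the design term p53-KO, and are called p53-deficient here. No drug, stress treatment, age or time point is given for either group, and the labels do not tell clones or cultures apart within a genotype. Whether values differ because lines or cultures differ, or because of the p53 genotype, cannot be told apart here. The p-values cover no more than the spread among the 3 libraries of a group, which may be technical. The series title concerns apoptosis and the return of haploid cells to diploidy, and its RNA data hold this one contrast of genotypes.

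As background, unfolded proteins in the ER lumen are sensed by 3 transmembrane proteins: IRE1 (gene Ern1), PERK (gene Eif2ak3) and ATF6. IRE1 removes an intron from Xbp1 mRNA so that it encodes an active transcription factor, PERK phosphorylates eIF2alpha and so slows translation while favouring ATF4, and ATF6 is cut in the Golgi to release a transcription factor. XBP1 and ATF6 act on chaperone and ERAD genes through promoter sequences such as the ER stress element. The present values are gene-level mRNA, so Xbp1 splicing, PERK phosphorylation and ATF6 cleavage were not measured.

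The sequences through which the UPR is known to act were looked for in the promoters first, because they are known from both chaperone and ERAD genes. RefSeq promoters of build GRCm38.p6, the build also called mm10, span 250 bases before to 50 bases after a start site, and 27 of the 34 genes had one (28 promoters, since Derl2 has 2). The ER stress element (ERSE) was searched on both strands as CCAAT and CCACG with any 9 bases between them. It was present in 9 of these 28 promoters (32.1%), against 39 of 32851 promoters in all (0.119%, the 9 included). Among promoters of genes tested the share was 0.172%. The element is known from chaperone and ERAD genes, so a high share here is not a finding of these data. ERSE-II was searched on both strands as ATTGG and CCACG with any 1 base between them. It was in 2 of the 28 (7.14%), against 0.0365% of all promoters and 0.0782% of promoters of genes tested. The XBP1-binding core TGACGTGG was in 0 of 28, against 0.676% of all promoters and 0.86% of promoters of genes tested. ERSE and ERSE-II share the letters CCACG, and no promoter of the 34 genes held both. A match is a description of letters in this window, and its absence says nothing of the factor. Each site is printed 5′ to 3′ on the strand of the gene, and capitals mark the letters of the element. Where it lies on the opposite strand, the capitals run from CGTGG to ATTGG, which is the ERSE read in reverse complement. Hspa5 is shown with shorter flanks because a longer model of that gene starts upstream of its window.
Hspa5, chr2:34772020-34772048, plus strand: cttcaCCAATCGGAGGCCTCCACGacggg
Hsp90b1, first site, chr10:86705618-86705676, minus strand: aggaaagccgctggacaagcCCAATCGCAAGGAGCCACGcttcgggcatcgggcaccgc
Hsp90b1, second site, chr10:86705513-86705571, minus strand: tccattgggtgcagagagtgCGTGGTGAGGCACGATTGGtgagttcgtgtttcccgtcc
Calr, chr8:84847055-84847113, minus strand: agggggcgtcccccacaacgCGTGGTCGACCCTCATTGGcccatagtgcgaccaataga
Canx, chr11:50325780-50325838, minus strand: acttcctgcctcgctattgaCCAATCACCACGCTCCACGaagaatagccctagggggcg
Dnajc3, chr14:118937807-118937865, plus strand: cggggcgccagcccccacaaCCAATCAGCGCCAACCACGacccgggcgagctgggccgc
Creld2, chr15:88819500-88819558, plus strand: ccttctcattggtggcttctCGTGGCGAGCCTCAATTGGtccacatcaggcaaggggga
Pdia6, chr12:17266471-17266529, plus strand: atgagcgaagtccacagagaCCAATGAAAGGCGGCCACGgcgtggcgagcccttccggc
Syvn1, chr19:6046512-6046570, plus strand: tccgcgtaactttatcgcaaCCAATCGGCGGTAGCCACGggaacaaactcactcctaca
Derl3, chr10:75893222-75893280, plus strand: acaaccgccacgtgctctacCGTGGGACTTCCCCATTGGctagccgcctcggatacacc
Herpud1 (ERSE-II), chr8:94386357-94386407, plus strand: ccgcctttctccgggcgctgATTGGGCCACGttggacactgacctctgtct
The second promoter with ERSE-II was that of Dnajb11, where the element does not lie wholly before the start site and is not shown.

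Levels are in FPKM (fragments per kilobase of transcript and unit of depth) and errors beside means are SD over 3 libraries. Groups were compared with limma on log2(FPKM + 1), with Benjamini-Hochberg adjustment over all 15144 genes, and those with adjusted p under 0.05 are said to have passed, or to have been called. A fold change on that scale understates the change of low genes. Reads rebuilt from the values numbered 11536412 to 21218976 per library. Trp53, the targeted gene, had 64.5, 69.8 and 69.6 FPKM in the WT libraries and 9.71, 9.71 and 9.98 FPKM in the p53-deficient libraries, which matches the labels. The 10 naive stem cell markers summed to between 1554 and 1565 FPKM in WT and between 1532 and 1540 FPKM in p53-deficient libraries. Even so, 6 of them rose (60%, against 35.3% of all tested genes) and 3 fell (30%, against 31.3%). Among them, Esrrb rose (54.4 to 101.1 FPKM) and Nanog fell (329.8 to 221.2 FPKM). Markers of other cells also moved with genotype. All 19 tested fibroblast markers of 20 were lower in p53-deficient cells, against 31.3% of all tested genes. Their summed level ranged from 1158 to 1181 FPKM in WT and from 283 to 291 FPKM in p53-deficient libraries. S100a4, at 0 in 2 p53-deficient libraries, was the only fibroblast marker at 0 in any library. The 8 primitive endoderm markers summed to 5.85 to 6.06 FPKM in WT and 2.66 to 2.90 FPKM in p53-deficient libraries. Of these, Dab2, Gata6 and Pdgfra were tested, and all 3 were lower. Pdgfra is also on the fibroblast list. Gata6 (means 0.992 and 0.152 FPKM) and Pdgfra (1.26 and 0.262 FPKM) passed the low-value filter only through their WT level, which favours a lower call. The same holds for the fibroblast marker Twist2 (2.74 and 0.233 FPKM). Untested at low levels, Afp (means 0.0551 and 0.828 FPKM) and Sox7 (0.291 and 0.656 FPKM) were higher in every p53-deficient library, and Sox17 and Foxa2 were each at 0 in 1 p53-deficient library. Reads of 4 Y-linked genes numbered 1161 in WT and 103 in p53-deficient libraries. These markers stand beside every result given here, and their part in the results was not tested. In bulk RNA, fewer cells of a type and less RNA per cell cannot be told apart.

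Most of the ER genes were lower in p53-deficient cells, by modest amounts. Of 34, 20 fell, 6 rose and 8 did not pass, against 31.3% of all tested genes lower and 35.3% higher. Since 66.5% of all tested genes were called, a rule of size was added. Only 6 of the 34 were called and changed at least 1.5-fold, all of them lower: the transcription factor gene Xbp1, the co-chaperone gene Dnajc3 and the ERAD genes Edem1, Herpud1, Erlec1 and Os9. None rose 1.5-fold. The background is 13.3% of tested genes called and at least 1.5-fold lower, and 9.16% at least 1.5-fold higher. The median log2 fold change was -0.17 over the 34 genes and 0.03 over all tested genes. In 27 of 34 genes the libraries of the groups did not overlap, a share to be read beside the 71.4% of all tested genes. Median ratio scaling, which levels the libraries on genes of about 5 FPKM or more, gave 26 of the 34 lower and 4 higher, with a median of -0.27. It moved the median of all tested genes to -0.055 and shifted the split of all tested genes from 4733 lower and 5341 higher to 5680 lower and 4180 higher, so small changes near 0 rest on the scaling.

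**Figure D1:**
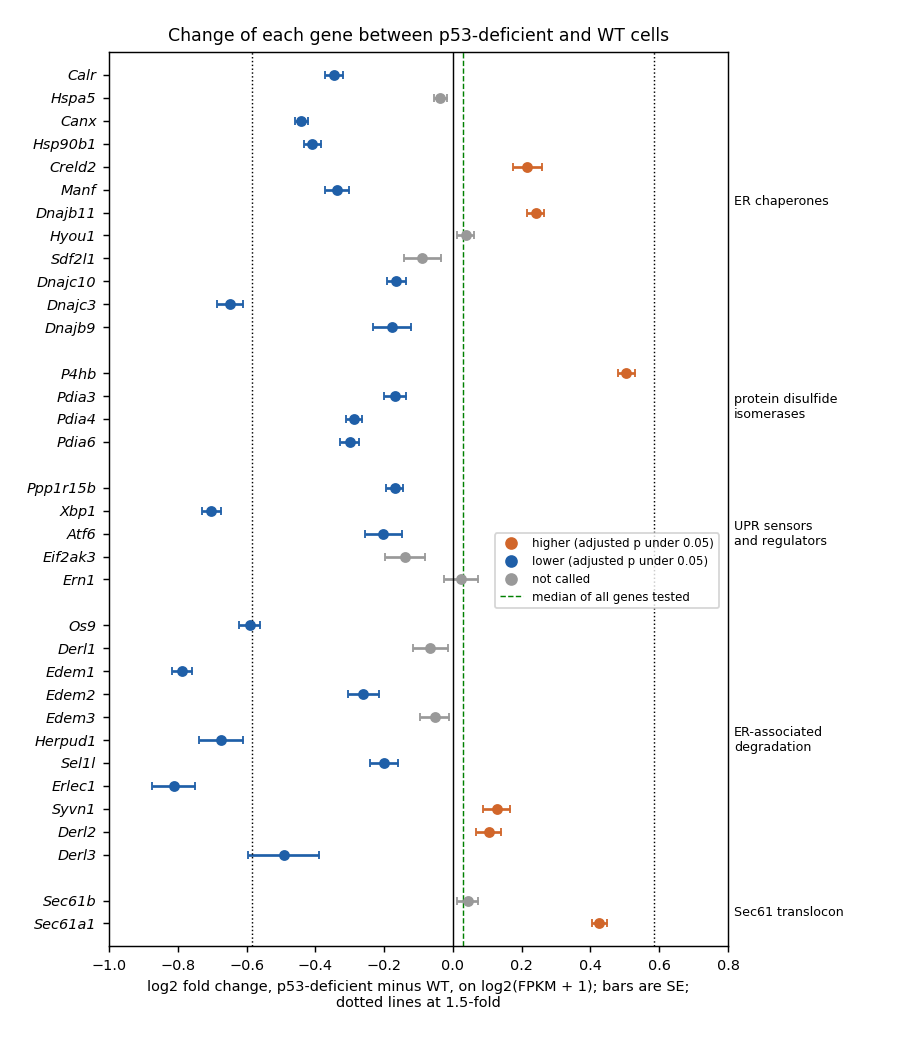
Log2 fold change of each of the 34 genes (x axis, p53-deficient minus WT, on log2(FPKM + 1), with SE bars), grouped by role on the y axis, with dotted lines at 1.5-fold. The 6 genes at or beyond the left dotted line are Erlec1, Edem1, Xbp1, Herpud1, Dnajc3 and Os9, and no gene reaches the right dotted line.

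The chaperones ranged widely in level and did not move as a block. Of 12 genes, 7 fell (58.3%, against 31.3% of all tested genes), 2 rose (16.7%, against 35.3%) and 3 did not pass. Hspa5 encodes BiP, the central Hsp70 chaperone of the ER lumen and the usual marker of a UPR (mm10, chromosome 2, 34771970 to 34777547, plus strand; ENSMUSG00000026864). It had 190.7, 191.4 and 192.2 FPKM in WT and 188.6, 184.9 and 186.1 FPKM in p53-deficient libraries. Each p53-deficient library lay just below each WT library, but the log2 fold change, -0.037 (SE 0.0193, limma adjusted p = 0.135), did not pass. Hspa5 was called lower under median ratio scaling, with -0.14 (limma adjusted p = 0.000405), under quantile normalization, with -0.068, and with voom weights on rebuilt reads, with -0.056.

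Hsp90b1, which encodes the ER Hsp90 GRP94, fell from 169.3, 166.1 and 170.9 FPKM to 127.9, 128.9 and 123.9 FPKM, a log2 fold change of -0.41 (SE 0.0244). The groups did not overlap. Reads of Hsp90b1 may include some from 1810014B01Rik, a gene at 1.17 FPKM that overlaps 10.3% of its exon length on the opposite strand, since the library kit is not stated to mark strand. Manf likewise overlaps the opposite-strand gene Dcaf1 (17.1 FPKM) over 146 bases. Hyou1, a large Hsp70 relative that acts as nucleotide exchange factor of BiP, went from 36.5 ± 0.681 in WT to 37.5 ± 0.445 FPKM and did not pass, with a log2 fold change of 0.037 that turned to -0.067 and was called under median ratio scaling.

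The J-domain proteins that deliver clients to BiP or regulate it changed in both directions. Dnajc3 (p58IPK), a co-chaperone that also restrains PERK, lies on chromosome 14 (118937976 to 118981697, plus strand). It had 15.2, 14.4 and 14.4 FPKM in WT and 9.26, 8.67 and 9.03 FPKM in p53-deficient libraries, with log2 fold change -0.65 and SE 0.0371 (limma adjusted p = 1.17e-05). Every p53-deficient library was lower than every WT library, and the mean ratio was 0.613. Dnajc10 (ERdj5), a reductase that helps clear misfolded proteins, fell from 17.9 ± 0.185 to 15.8 ± 0.331 FPKM. Dnajb11 (ERdj3), which binds unfolded clients, rose from 40.2 ± 0.673 to 47.7 ± 0.832 FPKM (log2 fold change 0.24). Its partner Sdf2l1 had 35.1 ± 1.38 and 33.0 ± 2.23 FPKM without passing. Sdf2l1 was called lower under either scaling alternative. Dnajb9 (ERdj4), which represses IRE1, fell from 8.03 ± 0.227 to 6.99 ± 0.540 FPKM, with limma adjusted p = 0.0274. The call of Dnajb9 ended with no low-value filter and on leaving out any 1 of WT replicates 1 and 2 and p53-deficient replicates 1 and 3, at adjusted p from 0.0520 to 0.0814.

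Calnexin and calreticulin hold sugar-tagged proteins while the isomerase Pdia3 (ERp57) forms their disulfides, and the genes of all 3 fell. Calr, the most abundant of the 34 genes in WT, had 319, 319 and 310 FPKM there and 254, 248 and 243 FPKM in p53-deficient libraries (log2 fold change -0.34, SE 0.0263). Canx had 179.8, 181.7 and 180.7 FPKM against 132.7, 133.2 and 132.6 FPKM (-0.44, SE 0.0183). For both genes the groups lay well apart, and their libraries within a group differed little. Pdia3 had 194.5, 195.1 and 196.5 FPKM against 179.4, 166.1 and 175.6 FPKM (-0.17, SE 0.0317). Manf and Creld2, ER proteins that are secreted in part under stress, moved in opposite directions: the former fell from 52.5 ± 0.665 to 41.4 ± 1.74 FPKM, and the latter rose from 66.3 ± 3.26 to 77.1 ± 2.57 FPKM.

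**Figure D2:**
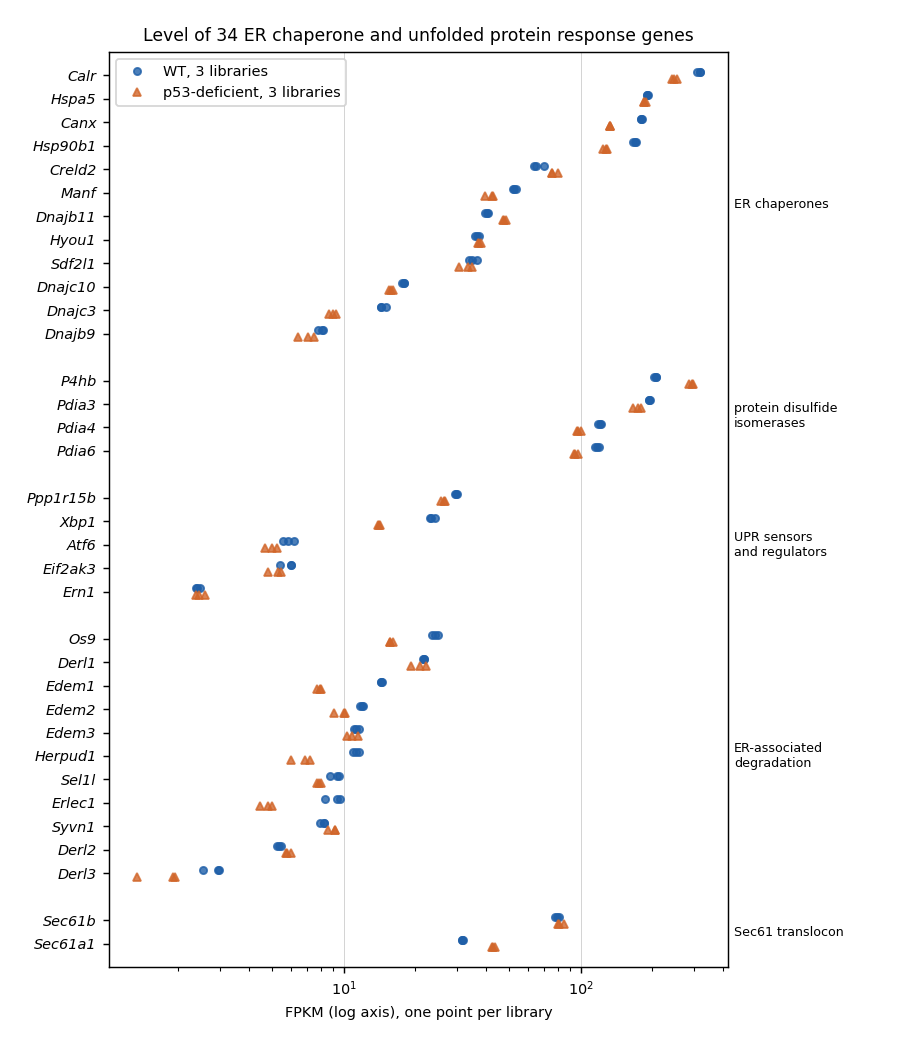
FPKM of the 34 genes on a log axis (x) by role (y), with 1 point per library, circles for WT and triangles for p53-deficient cells. Levels run from 1.35 FPKM for Derl3 to 319 FPKM for Calr, and the replicate points of a group lie close together.

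Among the 4 protein disulfide isomerases, which form and rearrange disulfide bonds, P4hb moved against the other members. P4hb encodes PDI itself, which is also the beta subunit of the collagen prolyl 4-hydroxylase (chromosome 11, 120560298 to 120573253, minus strand). It rose from 205.0, 208.6 and 207.5 FPKM in WT to 299, 286 and 297 FPKM, with log2 fold change 0.50 and SE 0.0246 (limma adjusted p = 5.84e-06). This was the largest rise of the 34 genes. Pdia4 fell from 120.9, 118.1 and 122.1 FPKM to 100.2, 97.1 and 97.9 FPKM (-0.29, SE 0.0237). Pdia6 fell from 117.9, 119.9 and 114.7 FPKM to 97.7, 94.4 and 93.5 FPKM (-0.30, SE 0.0276). No library of one group overlapped the other in any of the 4 genes. Because P4hb rose as Calr fell, P4hb ranked second of the 34 by mean FPKM in WT and first in p53-deficient cells, while Calr went from first to second. Summed over the 4 isomerases, the level was 640.3 FPKM in WT and 661.4 FPKM without p53, although 3 of them fell.

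The sensors were low and changed little, in contrast to Xbp1. Ern1 (IRE1) had 2.47, 2.41 and 2.39 FPKM in WT and 2.37, 2.46 and 2.61 FPKM in p53-deficient libraries, with overlapping groups (log2 fold change 0.024, SE 0.0495, limma adjusted p = 0.697). Quantile normalization called Ern1 higher, with 0.14. Eif2ak3 (PERK) had 5.98, 5.41 and 5.98 FPKM against 5.27, 4.80 and 5.44 FPKM and did not pass (-0.14, SE 0.0580, limma adjusted p = 0.0724). Eif2ak3 was called lower with the replicate number as a block, under median ratio scaling, with voom weights and on leaving out WT replicate 2, at adjusted p from 0.0114 to 0.0446. Atf6 had 5.56, 6.15 and 5.82 FPKM against 4.64, 4.98 and 5.23 FPKM, a fall of 0.20 on the log2 scale (limma adjusted p = 0.0144) that did not pass without WT replicate 2 (adjusted p = 0.0510).

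Xbp1, the transcription factor gene downstream of IRE1 (chromosome 11, 5520659 to 5525893, plus strand; ENSMUSG00000020484), had 23.4, 24.2 and 23.1 FPKM in WT and 14.1, 13.9 and 14.3 FPKM in p53-deficient libraries. The groups stood far apart relative to their spread, at 23.6 ± 0.568 and 14.1 ± 0.181 FPKM, with log2 fold change -0.70 and SE 0.0282 (limma adjusted p = 2.45e-06). Ppp1r15b, which encodes the constitutive partner of the phosphatase that resets eIF2alpha, fell from 29.8 ± 0.272 to 26.4 ± 0.507 FPKM (log2 fold change -0.17).

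**Figure D3:**
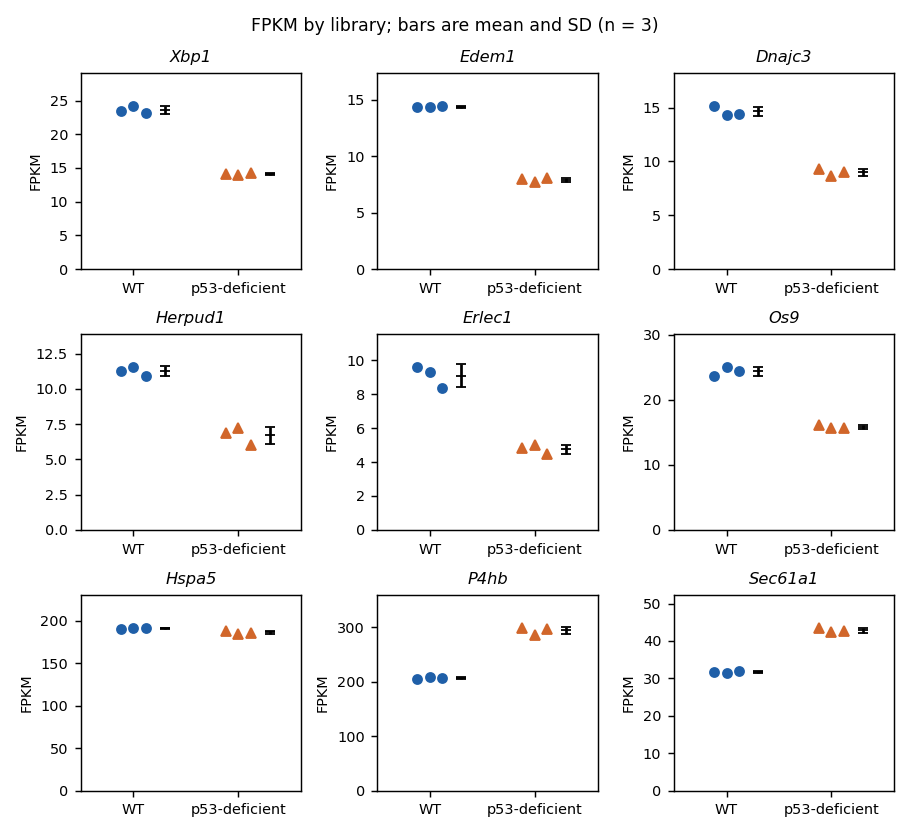
FPKM in each library (y axis from 0) for the 6 genes lower by at least 1.5-fold and for Hspa5, P4hb and Sec61a1, with the mean and SD of 3 libraries beside the points. Xbp1, Edem1, Dnajc3, Herpud1, Erlec1 and Os9 show p53-deficient points well below WT, Hspa5 is nearly level, and P4hb and Sec61a1 are higher.

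ERAD removes misfolded proteins from the ER, and 4 of the 6 genes lower by at least 1.5-fold belong to it. Of 11 ERAD genes, 7 fell (63.6%, against 31.3% of all tested genes), 2 rose (18.2%, against 35.3%) and 2 did not pass. The 4 changed at least 1.5-fold stand beside 13.3% of all tested genes lower by that size. The 2 largest falls were in genes that recognise or trim the sugars of misfolded glycoproteins, Erlec1 and Edem1. Erlec1 (XTP3-B), a lectin that brings glycoproteins to the ubiquitin ligase (chromosome 11, 30930774 to 30954335, minus strand), had 9.63, 9.34 and 8.36 FPKM in WT and 4.81, 4.99 and 4.45 FPKM in p53-deficient libraries. With log2 fold change -0.81 and SE 0.0620 (limma adjusted p = 4.23e-05), it fell furthest of the 34 genes. Os9, the other lectin of this step (chromosome 10, 127095650 to 127121131, minus strand), had 23.7, 25.1 and 24.4 FPKM against 16.2, 15.7 and 15.7 FPKM (-0.59, SE 0.0308), just past the 1.5-fold line. Both lectin genes were thus lower in each p53-deficient library.

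The EDEM genes, which encode mannosidase-like proteins that trim glycans of terminally misfolded proteins, differed among themselves. Edem1 (chromosome 6, 108828641 to 108859356, plus strand) had 14.4, 14.3 and 14.5 FPKM in WT and 7.95, 7.72 and 8.05 FPKM in p53-deficient libraries, so that the log2 fold change was -0.79 (SE 0.0289, limma adjusted p = 1.67e-06). Edem2 fell less, from 11.9 ± 0.206 to 9.77 ± 0.571 FPKM (-0.26). Edem3 had 11.3 ± 0.265 and 10.9 ± 0.549 FPKM and did not pass, although median ratio scaling called it lower with -0.15. The order of the fitted changes was thus Edem1, Edem2, Edem3, and the differences between them were not tested.

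Genes of the membrane complex around the ubiquitin ligase HRD1, which moves proteins back to the cytosol, moved in both directions. Herpud1, a scaffold of the complex (chromosome 8, 94386438 to 94395377, plus strand), had 11.3, 11.6 and 10.9 FPKM in WT and 6.9, 7.2 and 6.0 FPKM in p53-deficient libraries (-0.67, SE 0.0631, limma adjusted p = 0.000110). Sel1l, the adaptor of HRD1, fell from 9.21 ± 0.433 to 7.89 ± 0.141 FPKM (-0.20). Syvn1, which encodes HRD1, rose from 8.15 ± 0.189 to 8.99 ± 0.375 FPKM (0.13, limma adjusted p = 0.0277). Syvn1 overlaps the opposite-strand gene Mrpl49 (42.6 FPKM) over 91 bases, from which it may take reads. The rise of Syvn1 did not pass under median ratio scaling or without any 1 of WT replicates 1, 2 and 3 and p53-deficient replicates 1 and 3, at adjusted p from 0.0530 to 0.507.

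The Derlins, channel-like membrane proteins of ERAD, also split. Derl1 had 21.8 ± 0.0498 and 20.8 ± 1.48 FPKM and did not pass, but was called lower under either scaling alternative. A processed pseudogene at 1.30 FPKM, Gm35638, is 95.4% identical to Derl1 over 652 bases. Derl2 rose from 5.35 ± 0.101 to 5.83 ± 0.125 FPKM (0.10, limma adjusted p = 0.0400), a call that ended without any single library. With each library left out in turn its adjusted p lay between 0.0580 and 0.117, and it reached 0.771 under median ratio scaling. Derl2 overlaps the opposite-strand gene Mis12 (12.9 FPKM) over 231 bases, from which it may take reads. Derl3 fell from 2.93, 2.98 and 2.56 FPKM to 1.91, 1.35 and 1.93 FPKM (-0.49, SE 0.103), on 31 to 117 reads per library, the fewest of the 34 genes. Its groups did not overlap, and the mean ratio was 0.612.

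For the translocon, the channel through which proteins enter the ER, neither listed gene was called lower. Sec61a1, its pore subunit, had 31.6, 31.5 and 31.9 FPKM in WT and 43.6, 42.3 and 42.8 FPKM in p53-deficient libraries (log2 fold change 0.43, SE 0.0223, limma adjusted p = 7.86e-06). The groups did not overlap, and the mean ratio was 1.35. Sec61b, a small accessory subunit, had 79.5 ± 1.49 and 82.0 ± 2.73 FPKM and did not pass.

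The 9 genes with an ERSE in their promoter, printed above, did not share one direction. Hsp90b1, Calr, Canx, Pdia6, Dnajc3 and Derl3 fell, Creld2 and Syvn1 rose, and Hspa5 did not pass. Their log2 fold changes ran from -0.65 to 0.22 with a median of -0.34. The 18 genes whose promoter had no ERSE, 2 of which (Herpud1 and Dnajb11) held an ERSE-II, ran from -0.79 to 0.50 with a median of -0.17. Of these 18, 10 were lower and 3 higher, and of the 9 with an ERSE, 6 were lower and 2 higher. Both sets stand beside 31.3% of all tested genes lower and 35.3% higher, and the difference between them was not tested. Among the 6 genes lower by at least 1.5-fold, Dnajc3 held an ERSE and Herpud1 an ERSE-II. No match was in the promoters of Xbp1, Edem1 and Os9, and Erlec1 had no promoter in the table. The genes with an ERSE were also the more abundant, with a median WT mean of 117.5 FPKM against 16.1 FPKM.

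Other genes of the pathway were read from lists that did not include the 34, and their counts stand beside 31.3% of all tested genes lower and 35.3% higher. Of each list in turn, the share lower was 92.3% (ATF4 and CHOP arm), 63.2% (folding, glycan and redox), 25% (translocon), 28.6% (ERAD) and 26.7% (UPR regulators), and the share higher was 0%, 10.5%, 18.8%, 42.9% and 53.3%. The last 3 lists thus had a share lower near or under that of all tested genes. Of 13 tested ATF4 and CHOP arm genes (14 listed), 12 fell, 10 of them by at least 1.5-fold, and none rose, with a median log2 fold change of -1.06. Genes of this list can answer to other factors too, and whether their falls reflect ATF4 activity was not tested. Nupr1 and Ddit4, stress-induced genes of which Ddit4 inhibits mTORC1, both fell with -3.49, while Cebpg, a partner of ATF4, had 5.69 and 5.81 FPKM and did not pass. Of 19 other folding, glycan and redox genes, 12 fell and 2 rose (median -0.17). Among those that fell, Ero1lb (means 0.812 and 0.475 FPKM) passed the low-value filter only through its WT level, which favours a lower call. Fkbp10, a collagen prolyl isomerase, went from 19.8 to 4.47 FPKM, and Ero1l, which encodes the oxidase that recharges PDI, from 34.2 to 8.35 FPKM (-1.93 and -1.91). Erp29 and Fkbp11 rose with 0.50 and 0.49, and Ganab, which encodes a glucosidase subunit, had 69.0 and 70.3 FPKM without passing, though median ratio scaling called it lower with -0.079.

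The remaining lists were closer to even. Of 16 other translocon and signal peptidase genes, 4 fell and 3 rose (median -0.02), or 10 and 2 under median ratio scaling. Srprb, a subunit of the signal recognition particle receptor, rose with 0.54 and Ssr1 with 0.22. The signal peptidase gene Spcs1 fell with -0.32 and Sec63 with -0.30, and Ssr2 had 163.9 and 173.1 FPKM without passing. Of 14 other ERAD genes, 6 rose and 4 fell (median 0.01), or 3 and 5 under median ratio scaling. Nploc4, a cofactor of the ATPase VCP that extracts ERAD clients, rose from 27.3 to 60.8 FPKM (1.13), and Selenok rose with 0.42. The ubiquitin-conjugating enzyme gene Ube2j1 fell with -0.74, and Ubxn4 had 21.5 and 21.3 FPKM without passing.

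Of 15 tested other UPR regulators (16 listed), 8 rose and 4 fell (median 0.12). Eif2ak1 and Eif2ak2, eIF2alpha kinases that answer to haem shortage and to double-stranded RNA, rose with 0.71 and 0.41. Creb3l1 and Creb3l2, which encode ER-anchored transcription factors related to ATF6, fell with -1.92 and -0.99, and Mbtps1, the protease that first cuts ATF6, had 17.5 and 17.9 FPKM without passing. Creb3l1 and Fkbp10 are known for roles in collagen-producing cells, and all 19 tested fibroblast markers fell in the same libraries, from a summed 1171 to 287 FPKM. The part of that in their fall was not tested.

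**Figure D4:**
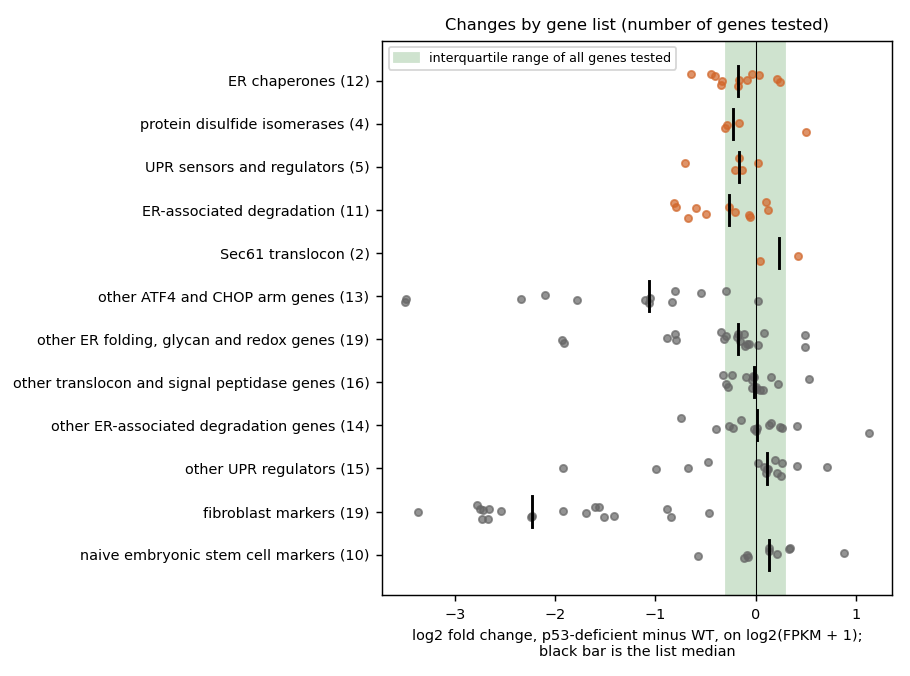
Log2 fold changes (x axis, p53-deficient minus WT) of single genes by list (y axis, number tested in brackets), with the list median as a black bar and the interquartile range of all tested genes (-0.30 to 0.29) shaded. The ATF4 and CHOP arm has a median of -1.06 and fibroblast markers -2.23, while the 5 groups of the 34 ER genes have medians between -0.26 and 0.23.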

How the data were processed

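The authors deposited FPKM per gene for 3 WT and 3 p53-deficient libraries. Per the labels' protocols, mRNA was purified with poly-T beads and libraries were made with a NEBNext Ultra kit. The submitters' processing notes name HISAT2 2.0.5, featureCounts 1.5.0-p3 and build mm10, with no roles given. Multiplied by the deposited gene length, 100% of FPKM values above 0 were whole multiples of 1 unit per library (tolerance 0.01), from which reads were rebuilt. Of genes found in GENCODE M21, 98.3% had the same coordinates there. Symbols turned into dates (27) were restored by identifier, and Ddit3, which has 2 rows, was taken from its expressed row. Limma 3.58.1 in R 4.3.3 (variance trend, two-sided) was fitted to log2(FPKM + 1) after genes under a mean FPKM of 0.5 were dropped. An exact permutation test of 3 against 3 cannot go below 0.1. Near-identical copies were sought at 95% identity over at least 50% of the shorter transcript. The fit was also run on simulated reads with planted changes, and no outcome of that run is given here. The 34 genes, lists and tests were chosen with earlier results of these data known. Named with the value in every library were genes called and changed at least 1.5-fold, genes of mean FPKM at least 100, the 3 sensors and Xbp1, to which Derl3 and Sec61a1 were added after their values were seen. From other lists, up to 2 called genes with the largest rise and fall and the most abundant uncalled gene were named. One gene that this rule names is not reported here. Promoter sequences are from RefSeq. Figures were drawn with matplotlib 3.10.9.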

Additional observations from a re-analysis of the deposited data

How the results depend on the processing

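Of the 26 called genes among the 34, 22 (18 lower, 4 higher) kept their direction and call in each of 15 alternatives: median ratio scaling, quantile normalization, a pseudocount of 0.1, a minimum mean FPKM of 5 or none, no variance trend, voom weights on rebuilt reads, the replicate number as a block, leaving out 1 library at a time and a threshold of 0.01. The exceptions were Dnajb9, Atf6, Syvn1 and Derl2. Derl3 and Ern1 lie below the mean of 5 FPKM and had no value there. The count of genes lower and higher among the 34 ranged from 18 to 26 and from 4 to 7 over the alternatives, and 5 to 7 were called and changed at least 1.5-fold. It was 5 without WT replicate 2 or p53-deficient replicate 3. Among genes of mean FPKM at least 5, 5944 of all genes were called, since fewer genes were tested. Under median ratio scaling Hyou1 (-0.067), Ganab (-0.079) and the translocon-associated gene Ssr4 (-0.096) turned lower and were called, as was Ssr4 under quantile normalization (-0.084). The cause was not tested. With the replicate number as a block, 21 of the 34 genes were lower, 5 higher and 6 changed at least 1.5-fold, and 9766 of all genes were called. Same-numbered libraries did not deviate together (correlations -0.03, 0.01 and 0.01), so the numbers were not taken to pair them. Derl3, at 31 to 117 reads, is the gene that depth limits most.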
